A study of Mus musculus with 16 samples.

Results

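The genes of the brain extracellular matrix described here, 10 chosen by name, were followed in the medial prefrontal cortex (mPFC) of 16 mice. They were Acan, Bcan, Ncan, Vcan, Hapln1, Hapln2, Hapln4, Tnr, Tnc and Ptprz1, and all 10 were found by their symbols among the 26625 rows of the gene table. For 9 of the 10, enough reads were counted for a test. Acan was not tested. The animals were male C57BL/6 mice aged 8 to 10 weeks, and all had received an adeno-associated virus in the mPFC. In the Ctrl groups (labelled shNC and WT) the virus carried a control hairpin. In the Kdm7a-shRNA groups (labelled shKDM7A and KDM7A knockdown) it carried a short hairpin RNA against Kdm7a, a histone lysine demethylase, made from a U6 promoter together with an EGFP reporter under a CMV promoter. The U6 promoter does not restrict the hairpin to a cell type, and the RNA came from the tissue as a whole. The mice were conditioned in a place preference test over 10 days. In the morphine groups, injections of morphine (10 mg/kg) took turns with injections of saline from day to day, and the saline groups are labelled as saline. Tissue came from the 7th withdrawal day (day 17). Of the 7 Ctrl mice, 3 had saline and 4 morphine, and of the 9 Kdm7a-shRNA mice, 5 had saline and 4 morphine (groups named Ctrl + Saline, Ctrl + Morphine and so on), each with its own library of Nanopore full-length cDNA reads. The questions were whether the genes differed after morphine withdrawal, whether they differed with Kdm7a knockdown, and whether the knockdown difference depended on the treatment.

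Perineuronal nets are lattices of matrix that wrap the cell body and proximal dendrites of certain neurons, in the cortex mostly the parvalbumin-positive interneurons, and they limit plasticity in the adult brain. Their backbone is hyaluronan. Chondroitin sulfate proteoglycans of the lectican family (aggrecan, brevican, neurocan and versican) bind to it, link proteins of the Hapln family hold that bond, and tenascin-R ties the lecticans together at their other end. Tenascin-C is a relative of tenascin-R that is prominent in development and after injury, and Ptprz1 encodes a receptor phosphatase whose outer part is itself a chondroitin sulfate proteoglycan, phosphacan.

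Each lectican gene of the mouse lies beside a link protein gene. On the GRCm38 build (GENCODE vM21), Bcan lies at chr3:87987531-88000230 on the minus strand and Hapln2 at chr3:88021750-88027583 on the same strand, 21.5 kb apart. Ncan, at chr8:70093085-70120873 on the minus strand, is 2.22 kb from Hapln4, at chr8:70083457-70090862 on the plus strand. Vcan, at chr13:89655312-89742509 on the minus strand, is 43.7 kb from Hapln1, at chr13:89539796-89611652 on the plus strand. Acan, at chr7:79053483-79115099 on the plus strand, ends 2 bases before Hapln3, which is not among the 10 genes. No coding gene lies between the partners of any of the 4 pairs. Tnr lies at chr1:159523769-159931729 on the plus strand, Tnc at chr4:63959785-64047015 on the minus strand and Ptprz1 at chr6:22875502-23052916 on the plus strand. Reads of all transcripts of a gene were summed. The longest coding transcript ran from 1.71 kb for Hapln2 and 3.14 kb for Bcan to 12.2 kb for Tnr and 12.4 kb for Vcan. Vcan, Tnr and Tnc each overlap noncoding genes (Gm4117, Gm38039 and 8030451A03Rik lie on their opposite strands). Tnr also overlaps Gm10530 and Gm37731 on its own strand, whose reads could not be told apart by strand. Pseudogenes on the opposite strand overlap Vcan (Gm16318) and Hapln1 (Gm8546), and Mir7066 overlaps Ncan on the same strand. Whether the counting used strand is not given in the sources used here, so that reads of the overlapping genes could be included.

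The promoters of the 3 genes whose saline groups did not overlap between viruses are shown here as the 250 bases before the RefSeq start (GRCm38.p6), in the direction of the gene, with CG dinucleotides in capitals. They lie at chr3:88000357-88000606 (minus strand) for Bcan, chr13:89742513-89742762 (minus strand) for Vcan and chr6:22875252-22875501 (plus strand) for Ptprz1.
Bcan: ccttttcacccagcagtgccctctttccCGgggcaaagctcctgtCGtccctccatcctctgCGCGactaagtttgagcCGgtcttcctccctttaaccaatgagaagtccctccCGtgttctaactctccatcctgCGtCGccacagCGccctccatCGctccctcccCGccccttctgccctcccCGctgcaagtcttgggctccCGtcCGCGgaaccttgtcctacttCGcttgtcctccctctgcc
Vcan: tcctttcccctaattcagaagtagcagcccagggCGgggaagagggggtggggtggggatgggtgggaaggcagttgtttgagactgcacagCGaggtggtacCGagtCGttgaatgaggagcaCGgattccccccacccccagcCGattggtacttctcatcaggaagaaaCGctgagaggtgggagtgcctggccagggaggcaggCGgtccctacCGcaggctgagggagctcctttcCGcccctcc
Ptprz1: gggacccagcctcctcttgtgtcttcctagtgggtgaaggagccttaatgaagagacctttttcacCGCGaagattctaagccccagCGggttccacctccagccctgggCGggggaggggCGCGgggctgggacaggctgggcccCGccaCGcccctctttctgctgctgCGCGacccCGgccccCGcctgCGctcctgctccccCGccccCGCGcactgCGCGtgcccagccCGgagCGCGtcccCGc
Bcan held 16 CG dinucleotides, Vcan 10 and Ptprz1 22, where the median of 32841 mouse promoters of the same length was 6. Fewer CG dinucleotides than in Bcan were counted in 74.56% of those promoters, fewer than in Vcan in 62.19% and fewer than in Ptprz1 in 85.17%. A promoter was found for 9 of the 10 genes. Acan held 26 CG dinucleotides and Ncan 6, while Hapln1, Hapln2 and Tnr held 2 each. The letters TATAAA, searched on both strands, were found in the promoters of Ncan and Tnc and in 12.37% of all promoters.

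Between 6596991 and 12418112 reads per mouse were counted. Values are CPM (read counts relative to the library total) with library sizes scaled by edgeR's TMM factors, and errors are SD over mice. Kdm7a, the targeted gene, was 9.42 ± 0.353 CPM in Ctrl + Saline (n = 3), 7.72 ± 1.13 in Ctrl + Morphine (n = 4), 5.55 ± 0.571 in Kdm7a-shRNA + Saline (n = 5) and 4.94 ± 1.53 in Kdm7a-shRNA + Morphine mice (n = 4). Its log2 difference between viruses was -0.76 in saline mice (adjusted p = 0.0153) and -0.67 in morphine mice (adjusted p = 0.0506). Adjusted p-values are from edgeR's quasi-likelihood test over 18826 tested genes. To pass, a gene needed an adjusted p under 0.05 together with a 1.5-fold change or more, and "rose" and "fell" are used only of genes that passed. The groups share mice between comparisons: the Ctrl + Morphine mice serve in the morphine comparison and in the knockdown comparison under morphine, and the Ctrl + Saline mice in the morphine comparison and in the knockdown comparison under saline.

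Brevican (Bcan), a lectican made largely by glia and abundant in the adult brain, had its highest level in the Ctrl + Morphine group. It was 20.1, 18.4 and 18.02 CPM in the Ctrl + Saline mice and 36.9, 29.8, 29.5 and 35.0 CPM in the Ctrl + Morphine mice. Every Ctrl + Morphine mouse was above every Ctrl + Saline mouse, and the group means were 18.8 ± 1.10 (n = 3) and 32.8 ± 3.75 CPM (n = 4). With knockdown, Bcan was 29.6, 24.0, 26.3, 21.1 and 26.5 CPM in saline mice and 17.6, 25.2, 25.4 and 20.8 CPM in morphine mice. These groups overlapped each other, and both lay between the Ctrl + Saline mean and the Ctrl + Morphine mice except for 1 mouse at 17.6 and 1 at 29.6 CPM. From 115 to 370 Bcan reads were counted per mouse. In bulk tissue, fewer cells of a type and less RNA per cell cannot be told apart.

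The log2 difference of Bcan between Ctrl + Morphine and Ctrl + Saline mice was 0.80 (SE 0.156, interval 0.49 to 1.11, where an interval is the value plus or minus 2 SE), a 1.74-fold higher level, and its adjusted p was 0.103, so that it did not pass. By edgeR 0% of all tested genes passed in this comparison (the lowest adjusted p was 0.0959), while 11.7% had an unadjusted p under 0.05 and DESeq2's Wald test called 0.983% (185 genes), Bcan among them (adjusted p = 0.00182). Without Ctrl + Saline replicate 1, Bcan passed in edgeR too (0.81, adjusted p = 0.0371). Over the 9 alternative settings its adjusted p ran from 0.00182 to 0.161. Groups with higher values that did not overlap were found for 7.04% of all tested genes.

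Between Kdm7a-shRNA + Morphine and Ctrl + Morphine mice the log2 difference of Bcan was -0.56 (SE 0.141, interval -0.84 to -0.27). Its adjusted p was 0.0213, and the fold of 0.680 fell short of the fold threshold, so that Bcan did not pass. Every Kdm7a-shRNA + Morphine mouse was below every Ctrl + Morphine mouse, which held for 7.51% of all tested genes. The difference reached the fold threshold with an adjusted p under 0.05 when library size alone was used (-0.67, adjusted p = 0.00741), with known genes only (-0.60, adjusted p = 0.0282), and without Ctrl + Morphine replicate 2 (-0.60) or 3 (-0.61) or Kdm7a-shRNA + Morphine replicate 2 (-0.62) or 3 (-0.63). The adjusted p was above 0.05 without Ctrl + Morphine replicate 1 (-0.49, adjusted p = 0.063) or 4 (-0.53, adjusted p = 0.0693) and without Kdm7a-shRNA + Morphine replicate 1 (-0.46, adjusted p = 0.0656). Over the alternative settings its adjusted p ran from 0.00609 to 0.0557. Under saline the difference had the opposite sign, 0.44 (SE 0.149, interval 0.14 to 0.74, adjusted p = 0.0463), again below the fold threshold. Its adjusted p was 0.0846 with the replicate number as a block and ran from 0.0338 to 0.144 over the alternative settings. Leaving out a mouse gave adjusted p-values of 0.0237 to 0.175. Every Kdm7a-shRNA + Saline mouse was above every Ctrl + Saline mouse, and higher values without overlap were found for 11.1% of all tested genes. The difference between the knockdown differences under morphine and under saline, which is the interaction, was -0.99 (SE 0.206, interval -1.40 to -0.58). By edgeR its adjusted p was 0.0686. By DESeq2 it was 0.00262, and it was 0.0341 and 0.0389 in edgeR without Kdm7a-shRNA + Morphine replicate 2 and without Ctrl + Saline replicate 1, with a range of 0.00262 to 0.14 over the alternative settings. In the other 14 fits that left out a mouse it did not pass, with adjusted p-values of up to 0.235. Of all tested genes 0.085% passed in the interaction, and Bcan stood at rank 37 of 18826 by p.

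**Figure D1:**
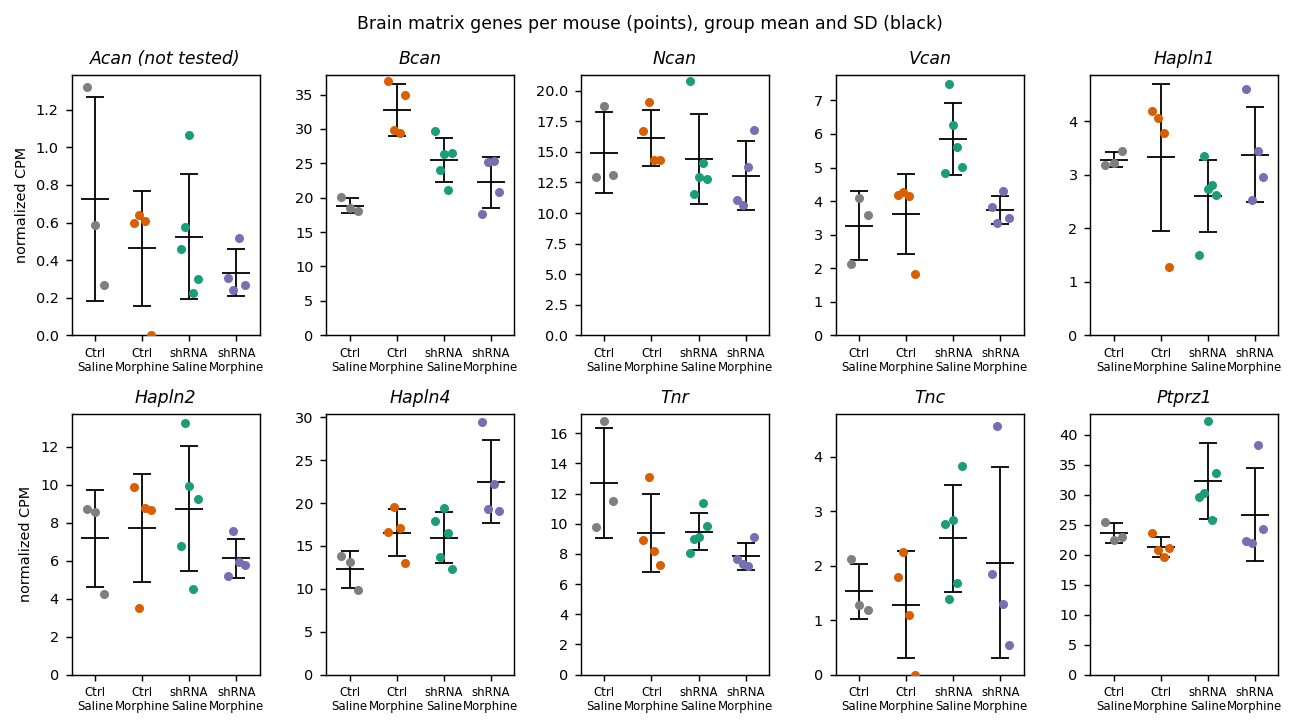
Normalized CPM (vertical axis, from 0) of each of the 10 genes in the 4 groups. Each point is a mouse, long horizontal bars are group means and whiskers are SD. Bcan lies between 29.5 and 36.9 CPM in all Ctrl + Morphine mice and at or below 29.6 CPM in the others, Vcan is above 4.8 CPM only in Kdm7a-shRNA + Saline mice, and Hapln4 is above 19.0 CPM in all Kdm7a-shRNA + Morphine mice.

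Versican (Vcan), a lectican of oligodendrocyte precursors and of the nodes of Ranvier, was, by edgeR, the only one of the 9 tested genes that passed in any comparison. It was 2.12, 4.10 and 3.58 CPM in the Ctrl + Saline mice and 4.83, 7.49, 6.28, 5.62 and 5.03 CPM in the Kdm7a-shRNA + Saline mice, and the groups did not overlap. Vcan rose by 0.82 on the log2 scale (SE 0.276, interval 0.27 to 1.38, adjusted p = 0.0426), a 1.77-fold higher level. This was 1 of 9 tested genes of the set, where 16.7% of all tested genes passed in the comparison and 7.43% of all tested genes passed with higher levels. The groups did not overlap for 3 of the 9 genes, Bcan, Vcan and Ptprz1, all higher with knockdown, against 11.1% of all tested genes.

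The call on Vcan under saline rests on 16 to 65 reads per mouse and was close to the threshold. It held in 4 of 9 alternative settings and in 4 of 8 fits that left out a mouse, with log2 differences of 0.69 to 1.00 and 0.56 to 1.04. The 4 settings were RLE size factors, the replicate block, DESeq2 and the adjusted p alone. The last repeats the main fit without the fold threshold, so that it could not lose the call. The call was lost without Ctrl + Saline replicate 1 (0.56, adjusted p = 0.185) or 3 (0.86, adjusted p = 0.105) and without Kdm7a-shRNA + Saline replicate 2 (0.72, adjusted p = 0.0948) or 3 (0.80, adjusted p = 0.076). Over the alternative settings the adjusted p of Vcan ran from 0.0233 to 0.0781.

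Under morphine, Vcan was 4.19, 4.27, 4.14 and 1.82 CPM in Ctrl and 3.83, 3.36, 4.30 and 3.49 CPM in Kdm7a-shRNA mice. The groups overlapped, and the log2 difference was 0.06 (interval -0.47 to 0.59, adjusted p = 0.914). Its sign depended on single mice, since it was -0.16 without the Ctrl mouse at 1.82 CPM and -0.02 without the Kdm7a-shRNA mouse at 4.30 CPM. It also depended on the scaling, since the difference was -0.05 with library size alone. With knockdown in both groups, every morphine mouse had a lower Vcan value than every saline mouse, a difference of -0.64 (SE 0.247, adjusted p = 0.679) that did not pass. Lower values without overlap were found for 0.988% of all tested genes in that comparison, and 0.00531% of genes passed in it. The interaction for Vcan was -0.76 (SE 0.382, interval -1.53 to 0.00, adjusted p = 0.496).

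Neurocan (Ncan), a lectican secreted mainly by neurons and astrocytes during development, showed no difference that passed. Its values were 12.9, 18.7 and 13.1 CPM in Ctrl + Saline, 16.7, 19.1, 14.4 and 14.3 in Ctrl + Morphine, 20.8, 11.5, 12.9, 14.1 and 12.8 in Kdm7a-shRNA + Saline, and 11.0, 10.7, 13.8 and 16.8 in Kdm7a-shRNA + Morphine mice. All 4 groups overlapped. The log2 differences were 0.10 (interval -0.33 to 0.54) with morphine in Ctrl mice, -0.06 (-0.47 to 0.36) with knockdown under saline and -0.30 (-0.70 to 0.10) with knockdown under morphine.

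Aggrecan (Acan), the lectican most used to mark perineuronal nets, was near the limit of detection. From 0 to 10 reads per mouse were counted, 70 over all mice, and 15 of the 16 mice had fewer than 10. The means were 0.724 ± 0.542 CPM in Ctrl + Saline (n = 3), 0.462 ± 0.309 in Ctrl + Morphine (n = 4), 0.526 ± 0.332 in Kdm7a-shRNA + Saline (n = 5) and 0.333 ± 0.125 in Kdm7a-shRNA + Morphine mice (n = 4). All groups overlapped. The count of 0 in Ctrl + Morphine replicate 4 allows up to 0.32 CPM, a limit of 3 counts that covers counting error only. A difference between groups in Acan was not detectable at this depth.

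Among the link proteins, Hapln4 (also called Bral2), which is found at perineuronal nets and inhibitory synapses, was higher in each knockdown group than in the Ctrl group of the same treatment by group mean, without passing. It was 13.9, 13.1 and 9.80 CPM in the Ctrl + Saline mice and 17.9, 13.7, 19.4, 16.5 and 12.3 CPM in the Kdm7a-shRNA + Saline mice. Under morphine it was 16.7, 19.5, 17.04 and 12.9 CPM in Ctrl and 29.4, 19.3, 22.2 and 19.1 CPM in Kdm7a-shRNA mice. The groups overlapped in both comparisons, with 1 Ctrl + Morphine mouse (19.5) above 2 of the knockdown mice. The log2 difference was 0.38 under saline (SE 0.197, adjusted p = 0.182) and 0.44 under morphine (SE 0.184, adjusted p = 0.139). Averaged over treatments, which uses all 16 mice, it was 0.41 (SE 0.135, interval 0.14 to 0.68, adjusted p = 0.0305), below the fold threshold. With library size alone the averaged difference was 0.29 (adjusted p = 0.0991), and without Ctrl + Saline replicate 3 it was 0.34 (adjusted p = 0.10), with adjusted p-values of 0.0133 to 0.0991 over the alternative settings. An adjusted p under 0.05 without the fold threshold was found for 27.6% of all tested genes in the averaged comparison, and with both thresholds 17.6% passed. The morphine differences of Hapln4 were 0.43 in Ctrl mice (SE 0.204, adjusted p = 0.427) and 0.49 in Kdm7a-shRNA mice (SE 0.174, adjusted p = 0.643), and the interaction was 0.06 (interval -0.48 to 0.60, adjusted p = 0.962).

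Hapln1 (cartilage link protein, the partner of aggrecan) and Hapln2 (Bral1, the link protein of nodes of Ranvier, made by oligodendrocytes) passed in no comparison. Hapln1 was 3.17, 3.22 and 3.44 CPM in Ctrl + Saline, 4.19, 4.05, 3.77 and 1.28 in Ctrl + Morphine, 1.49, 3.34, 2.73, 2.81 and 2.61 in Kdm7a-shRNA + Saline, and 4.60, 2.52, 3.44 and 2.95 in Kdm7a-shRNA + Morphine mice. The 3 Ctrl + Saline mice lay close together and the groups overlapped. The log2 difference of Hapln1 was 0.02 with morphine in Ctrl mice (interval -0.66 to 0.70), -0.33 with knockdown under saline (-0.99 to 0.33) and 0.01 with knockdown under morphine (-0.62 to 0.64). Hapln2 was 8.72, 8.59 and 4.24 CPM in Ctrl + Saline, 9.88, 3.52, 8.76 and 8.67 in Ctrl + Morphine, 6.78, 13.2, 9.95, 4.50 and 9.25 in Kdm7a-shRNA + Saline, and 5.21, 7.55, 5.93 and 5.77 in Kdm7a-shRNA + Morphine mice. In each group except Kdm7a-shRNA + Morphine, 1 mouse lay below all Kdm7a-shRNA + Morphine mice, and all groups overlapped. Among the comparisons of groups, the log2 difference of Hapln2 farthest from 0 was -0.51 with morphine under knockdown (interval -1.14 to 0.12, adjusted p = 0.767). The summed level of 10 oligodendrocyte markers overlapped between groups too, at 7614 to 13170 CPM in Ctrl + Saline, 7168 to 13340 in Ctrl + Morphine, 8545 to 18660 in Kdm7a-shRNA + Saline and 9041 to 20140 in Kdm7a-shRNA + Morphine mice.

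Tenascin-R (Tnr), made by oligodendrocytes and some interneurons, was 9.78, 16.8 and 11.5 CPM in Ctrl + Saline, 8.89, 13.1, 8.16 and 7.28 in Ctrl + Morphine, 8.04, 8.99, 9.12, 11.4 and 9.85 in Kdm7a-shRNA + Saline, and 7.66, 7.31, 7.22 and 9.12 in Kdm7a-shRNA + Morphine mice. The Ctrl + Saline group had the highest mean (12.7 ± 3.65, n = 3) and overlapped every other group except Kdm7a-shRNA + Morphine. The log2 differences were -0.45 with morphine in Ctrl mice (SE 0.215, adjusted p = 0.432), -0.43 with knockdown under saline (SE 0.205, adjusted p = 0.145) and -0.35 with knockdown averaged over treatments (SE 0.145, adjusted p = 0.0863). None passed. Tenascin-C (Tnc) was counted at 0 to 38 reads per mouse. Its group means were 1.52 ± 0.512 CPM in Ctrl + Saline (n = 3), 1.28 ± 0.977 in Ctrl + Morphine (n = 4), 2.50 ± 0.979 in Kdm7a-shRNA + Saline (n = 5) and 2.06 ± 1.75 in Kdm7a-shRNA + Morphine mice (n = 4), with overlap throughout. The knockdown difference of Tnc averaged over treatments was 0.69 with a interval of -0.22 to 1.61 (adjusted p = 0.28), so that its direction was not shown.

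Ptprz1, the receptor phosphatase of astrocytes and oligodendrocyte precursors, was 25.5, 22.4 and 22.9 CPM in the Ctrl + Saline mice and 29.5, 30.2, 42.3, 25.8 and 33.6 CPM in the Kdm7a-shRNA + Saline mice. These groups did not overlap, although the nearest mice were at 25.5 and 25.8 CPM. The log2 difference was 0.45 (SE 0.186, interval 0.08 to 0.83, adjusted p = 0.0941). Under morphine Ptprz1 was 23.7, 20.8, 19.6 and 21.1 CPM in Ctrl and 22.2, 21.9, 38.2 and 24.3 CPM in Kdm7a-shRNA mice. All knockdown mice but 1 lay at 21.9 to 24.3 CPM, next to the Ctrl mice, and the difference of 0.33 (SE 0.179, adjusted p = 0.258) was 0.10 without the mouse at 38.2 CPM. Averaged over treatments the knockdown difference was 0.39 (SE 0.129, adjusted p = 0.0307), below the fold threshold, and it was 0.28 (adjusted p = 0.071) without that mouse and 0.27 (adjusted p = 0.102) with library size alone. Over the alternative settings its adjusted p ran from 0.0188 to 0.102.

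**Figure D2:**
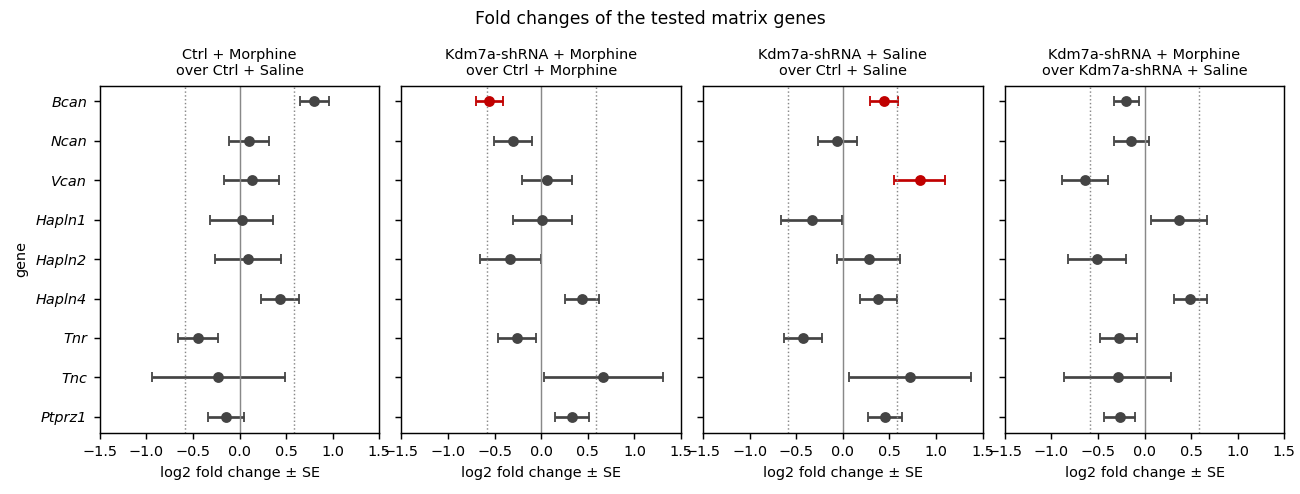
Log2 fold change (horizontal axis) of the 9 tested genes in the 4 comparisons of groups, with bars of 1 SE. Red marks an adjusted p under 0.05 and dotted lines mark the fold threshold of 1.5. Only Vcan under saline is red and beyond a dotted line (0.82), while Bcan is red at -0.56 under morphine and at 0.44 under saline.

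Counted over the set, 0 of the 9 tested genes passed in the morphine comparison of Ctrl mice by edgeR, 2 had an unadjusted p under 0.05 (Bcan and Hapln4), which 11.7% of all tested genes had, and DESeq2 called 1. With knockdown under morphine, 0 passed by edgeR and by DESeq2, 2 had an unadjusted p under 0.05 (Bcan and Hapln4), where 25.5% of all tested genes had one and 7.69% passed. With morphine under knockdown 0 passed by either tool, and 2 had an unadjusted p under 0.05 (Vcan and Hapln4) beside 7.02% of all tested genes. In the interaction 0 passed by edgeR, 1 had an unadjusted p under 0.05 (Bcan) beside 10.7% of all tested genes, and DESeq2 called it and 1.15% of all tested genes. In the averaged knockdown comparison 0 passed by either tool, and 4 had an unadjusted p under 0.05 (Vcan, Hapln4, Tnr and Ptprz1) beside 38.8% of all tested genes. The median log2 difference of the 9 genes was 0.38 with knockdown under saline, where the median of all tested genes was 0.015, and 0.01 with knockdown under morphine, where that of all tested genes was -0.005.

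The enzymes, receptors and ligands that act on these genes' products are given from lists that were written with results of these data known. None of their genes passed in the morphine comparison of Ctrl mice, where no gene of the table passed by edgeR. The counts that follow stand beside shares of all tested genes that passed of 16.7% under saline, 7.69% under morphine and 17.6% in the averaged comparison, and nothing particular to a list is read from them. Of 20 tested genes of chondroitin sulfate synthesis, 1 rose and 1 fell with knockdown under saline and none passed under morphine. B3gat3, which completes the linker that joins the sugar chain to the core protein, rose by 0.80 (SE 0.182, adjusted p = 0.00623), and Dsel, an epimerase that turns chondroitin into dermatan sulfate, fell by 0.75 (adjusted p = 0.0464). Under morphine their log2 differences were 0.39 and 0.64. The difference of Dsel thus had opposite signs in the treatments, and its interaction had an adjusted p of 0.12.

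Of 12 tested matrix proteases, 2 rose and 1 fell under saline, and 1 rose and 1 fell under morphine. Mmp16, a membrane-bound metalloproteinase, fell in both, by 0.89 under saline (adjusted p = 0.00573) and by 0.82 under morphine (adjusted p = 0.0174), from group means of 13.0 and 12.01 CPM to 6.99 and 6.77 CPM. Ctss (cathepsin S, a protease of microglia) rose in both, by 1.27 (adjusted p = 0.0317) and 1.28 (adjusted p = 0.0381), and Mmp2 rose under saline by 1.40 (adjusted p = 0.0486). Adamts1, a protease that cleaves lecticans, passed only in the averaged comparison (0.66, adjusted p = 0.0341). Of 8 protease inhibitors, 2 rose under saline and none passed under morphine: Serpine2 by 1.00 (adjusted p = 0.023) and Cst3 by 0.70 (adjusted p = 0.0338). Timp1, an inhibitor of metalloproteinases, rose by 1.37 in the averaged comparison (adjusted p = 0.0117).

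Among 12 receptors, Sdc3, a syndecan that binds pleiotrophin, rose under saline by 0.79 (adjusted p = 0.0122) and Ptprd fell by 0.70 (adjusted p = 0.0084). Nrcam, an adhesion molecule of nodes of Ranvier, fell under morphine by 0.64 (adjusted p = 0.00983), and Lingo1, a coreceptor for inhibitors of axon growth, fell in the averaged comparison by 0.64 (adjusted p = 0.0247). Of 8 tested factors that bind nets or Ptprz1, Mdk (midkine, a ligand of Ptprz1) rose under saline by 1.15 (adjusted p = 0.00262), from a mean of 16.5 to 36.6 CPM, and Il34, a ligand of Ptprz1 and of the microglial receptor Csf1r, fell by 0.68 (adjusted p = 0.0158). Of 17 other matrix genes, Gpc5 (1.21, adjusted p = 0.00215) and Sdc4 (0.89, adjusted p = 0.0445) rose under saline and Sdc2 (0.82, adjusted p = 0.00876) rose under morphine, and Sparc passed in the averaged comparison (0.62, adjusted p = 0.0367). Of 7 tested genes that make, bind or break down hyaluronan, none passed in either treatment. Averaged over treatments, the hyaluronidase Hyal1 rose by 0.73 (adjusted p = 0.0287) and Cemip2 fell by 0.78 (adjusted p = 0.0267).

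**Figure D3:**
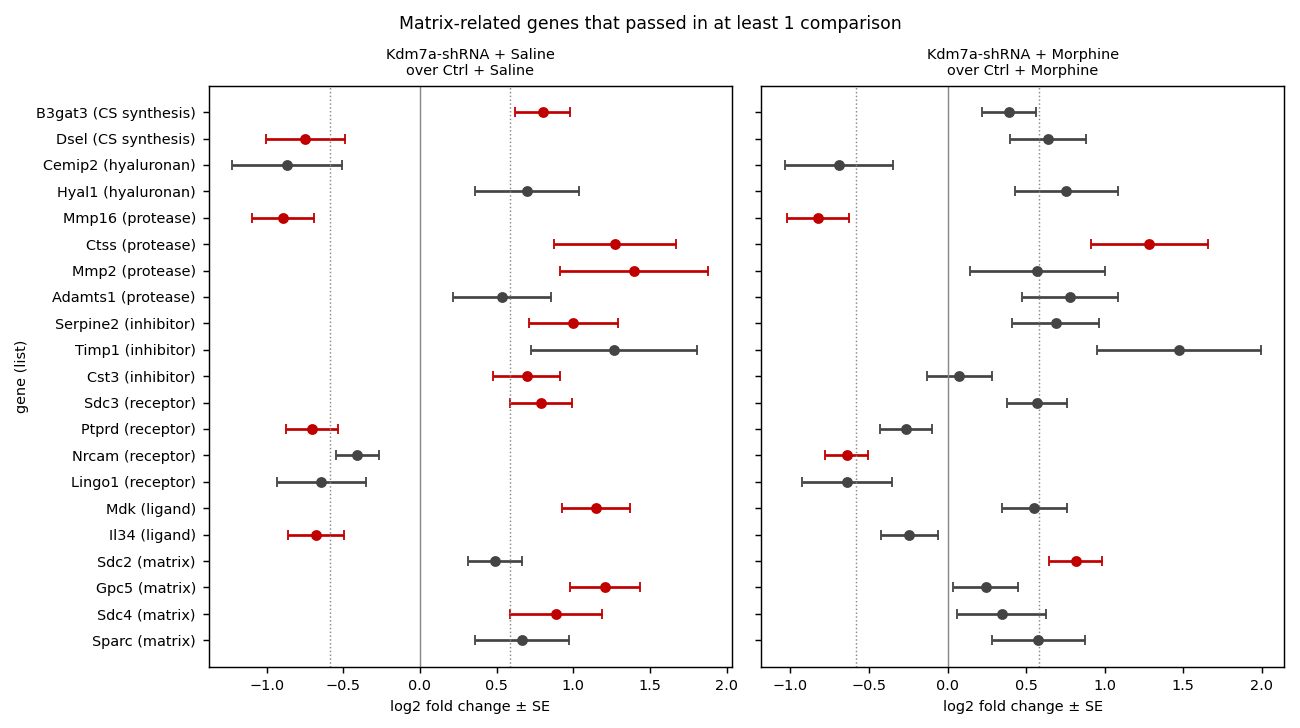
Log2 fold change with bars of 1 SE (horizontal axis) of the 21 genes of the matrix lists that passed in at least 1 comparison, for knockdown under saline (left) and under morphine (right). Red marks genes that passed in that panel's comparison, dotted lines the fold threshold, and genes that are red in neither panel passed in the comparison averaged over treatments. Mmp16 (-0.89 and -0.82) and Ctss (1.27 and 1.28) are red in both panels.

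Markers of some cell types moved with the virus, and their part in the matrix results was not tested. The counts of markers that follow stand beside shares of all tested genes that passed with knockdown, 16.7% under saline and 7.69% under morphine. No marker of any list passed in either morphine comparison, where 0% of all tested genes passed in Ctrl and 0.00531% in Kdm7a-shRNA mice. The summed level of 9 microglia markers was 901 to 1277 CPM in Ctrl + Saline, 556 to 1150 in Ctrl + Morphine, 1729 to 4987 in Kdm7a-shRNA + Saline and 1095 to 4845 in Kdm7a-shRNA + Morphine mice, and 8 of the 9 rose under saline and 6 under morphine. The summed level of 8 markers of GABA neurons was 947 to 1108, 854 to 1051, 412 to 628 and 453 to 737 CPM in the same order, so that all knockdown mice were below all Ctrl mice. Under saline 5 of those 8 fell (Npy, Sst, Vip, Lamp5 and Gad2) while Slc32a1 was among those that rose, and under morphine Npy and Sst fell.

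Of 10 markers of parvalbumin interneurons, the cells that carry most cortical nets, 3 rose under saline, Pvalb and Cox6a2 among them. Under morphine 3 rose (Pvalb, Cox6a2 and Syt2). Pvalb itself rose by 0.68 (adjusted p = 0.0174) and 0.81 (adjusted p = 0.0118). The median log2 difference of the 10 markers was 0.008 under saline, where that of all tested genes was 0.015. Under morphine the medians were 0.214 for the markers and -0.005 for all tested genes, and the other markers of the list did not pass. The summed level of the 10 markers was 183 to 223 CPM in Ctrl + Saline, 178 to 243 in Ctrl + Morphine, 219 to 250 in Kdm7a-shRNA + Saline and 234 to 297 in Kdm7a-shRNA + Morphine mice, beside the Hapln4 values above. Beside Vcan and Ptprz1, the sum of 8 markers of oligodendrocyte precursors was 43.8 to 60.1, 42.6 to 69.0, 42.5 to 84.7 and 44.8 to 75.6 CPM, with 1 of the 8 (Olig1) higher under saline. The microglia sums were in the same order as Ptprz1 in the 5 Kdm7a-shRNA + Saline mice, from 1729 CPM in the mouse with Ptprz1 at 25.8 CPM to 4987 CPM in that at 42.3 CPM. The Kdm7a-shRNA + Morphine mouse with Ptprz1 at 38.2 CPM had a microglia sum of 4845 CPM, and the others of its group 1095 to 2075 CPM. Among those others the order did not hold, since the sum of 1095 CPM was in the mouse with Ptprz1 at 24.3 CPM. It did not hold in either Ctrl group. In the 5 Kdm7a-shRNA + Saline mice the sums of GABA neuron markers had the reverse order of Ptprz1, from 628 CPM at 25.8 CPM to 412 CPM at 42.3 CPM. This reverse order held in no other group. In the Ctrl + Saline mice the GABA sums had the same order as Ptprz1, from 947 CPM at 22.35 CPM to 1108 CPM at 25.5 CPM. Of 10 astrocyte markers, Gfap and Aldh1l1 rose under saline, while the summed level overlapped between all groups except Ctrl + Morphine against Ctrl + Saline (7717 to 9340 against 9425 to 11890 CPM). The astrocyte sum is mostly Aldoc, a glycolytic enzyme of astrocytes (group means 9569 CPM in Ctrl + Saline and 7208 CPM in Ctrl + Morphine mice). Beside the Bcan difference with morphine in Ctrl mice, the median log2 difference of the 10 astrocyte markers was -0.167, where that of all tested genes was -0.014. Of the 10, 4 had log2 differences above 0 (Fgfr3 0.41, Gfap 0.19, Gjb6 0.11 and Aldh1l1 0.09), the others did not, and none passed. The sum of 7 markers of striatal neurons was 90.7 to 119.6 CPM in Ctrl + Saline and 140.2 to 175.4 CPM in Ctrl + Morphine mice without overlap, as for Bcan, while with knockdown it was 77.8 to 214.9 CPM under saline and 99.3 to 141.2 CPM under morphine. The median log2 difference of these 7 markers with morphine in Ctrl mice was 0.107, where that of all tested genes was -0.014, and none passed. Higher values without overlap, as in that sum, were found for 7.04% of all tested genes in this comparison. The part of the striatal sum in the Bcan result was not tested. The lists of endothelial cells (3 of 5 higher under saline and 1 under morphine), meningeal fibroblasts (1 of 5 higher under saline) and oligodendrocytes (1 of 10 higher under morphine) also held genes that passed, and none of the markers of excitatory or striatal neurons did in these comparisons. Given the shares of all tested genes, nothing particular to a list is read from 1 such gene. No marker was at 0 in all mice. Excitatory cortical markers were present in every library (704 to 1564 CPM summed over 6 genes).

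Transcript length also moved with the virus. For each mouse, the median log2 deviation of 1344 genes with transcripts of at least 7000 bases was set against that of 3427 genes with transcripts under 2000 bases. The difference was 0.057 to 0.298 in the Ctrl mice and -0.213 to 0.081 in the Kdm7a-shRNA mice. With knockdown under saline the median log2 difference was -0.12 for the long and 0.21 for the short class, and under morphine it was -0.06 and 0.10. Vcan, whose longest transcript is 12.4 kb, rose under saline against the direction of its length class, and Tnr, at 12.2 kb, had differences with the same sign as its class. Ptprz1 (8068 bases), Ncan (7195) and Tnc (7106) are also of the long class. Their differences under saline were 0.45, -0.06 and 0.72, and none passed. Hapln2 (1711 bases) is of the short class, and its difference under saline, 0.28, had the sign of its class and did not pass. The classes follow the longest annotated coding transcript of a gene and not the lengths of the reads counted. In the morphine comparison of Ctrl mice the medians of the classes were -0.01 and 0.01. The part of transcript length in the knockdown results was not tested.

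**Figure D4:**
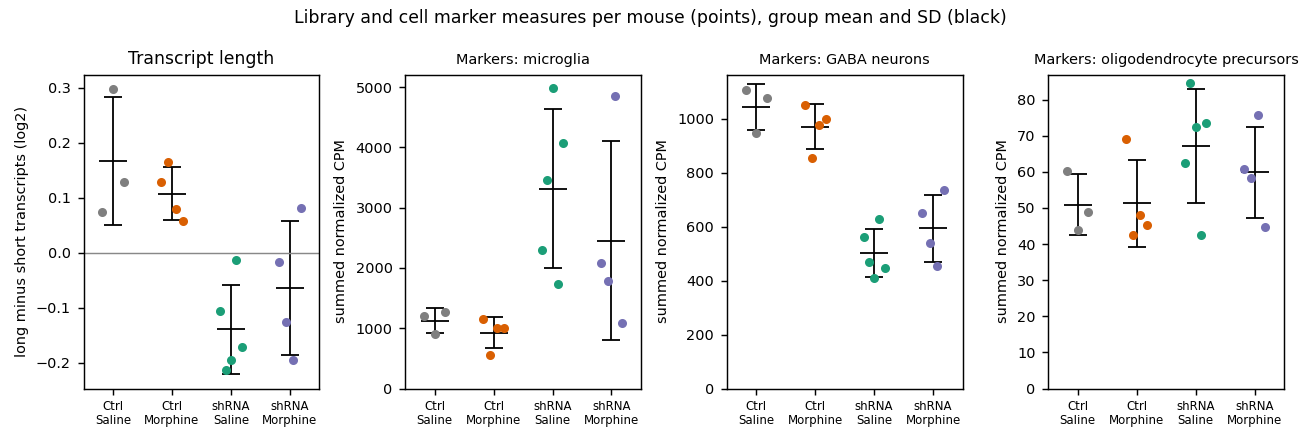
The transcript length measure (left, log2) and the summed normalized CPM of 3 marker lists (microglia, GABA neurons, oligodendrocyte precursors) in each mouse by group, with group means and SD. Ctrl mice are at 0.057 to 0.298 and Kdm7a-shRNA mice at -0.213 to 0.081 on the length measure, and the sums of GABA neuron markers do not overlap between viruses.

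Differences among mice of the same group were compared over all 36 pairs of the 9 tested genes, after each group's mean log2 CPM was subtracted. The highest correlation was that of Vcan with Hapln1, its neighbour on chromosome 13 (r = 0.786 over 16 mice). It was 0.485 without Ctrl + Morphine replicate 4, in which both genes were lowest, and 0.769 or more in all but this fit. The other neighbours did not stand at the top of the pairs: r was 0.43 for Bcan and Hapln2 and 0.232 for Ncan and Hapln4. Pairs that are not neighbours were higher, among them Vcan and Tnr (0.535) and Bcan and Ptprz1 (0.525). The lowest r was -0.513, for Bcan and Hapln1. Among 10024 known genes with a mean of at least 5 CPM, the mice's deviations of Bcan were most like those of Tram1 (r = 0.91), Usp35 (0.896) and Cdc16 (0.894), those of Vcan most like those of Azin1 (0.883), Ssr3 (0.847) and Tfrc (0.799), and those of Hapln4 most like those of Slc24a2 (0.837), Map3k5 (0.798) and Scd1 (0.788). For Ptprz1 the nearest were Baiap2l2 (0.948), Zfp385a (0.943) and Olfr77 (0.937), for Ncan Diras2, Ttyh3 and Cmtm4 (0.924 to 0.906), and for Tnr Wasf3, Brsk2 and Kif5a (0.935 to 0.875). For Hapln1 they were Dcaf4, Ccp110 and Ralgds (0.90 to 0.883), for Hapln2 Arvcf, Tfeb and Numa1 (0.871 to 0.834), and for Tnc Hmgn5, Tmem218 and Ado (0.876 to 0.771). All points share libraries, and with 16 mice the highest of 10024 correlations is high by selection.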

How the data were processed

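RNA of the mPFC of 16 mice was sequenced by the authors as Nanopore cDNA-PCR libraries. Per the paper's methods, short, low-quality and ribosomal reads were dropped, and full-length non-chimeric reads were clustered on mm10 with minimap2, Pinfish and cDNA Cupcake. The submitters' processing notes name edgeR 3.8.6. The deposited counts are reads per gene as the authors counted them, without normalization. For the deposited CPM, the authors divided a count by its library's total. Recomputed values differed by at most 4.99e-06, and the CPM columns were not used further. Long transcripts can be under-read by reverse transcription and PCR, so values were compared only between mice within a gene.

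The analysis of the counts used edgeR 4.0.16 under R 4.3.3, with limma 3.58.1 and, as an alternative, DESeq2 1.42.0. Groups came from the labels. Genes were filtered with filterByExpr, normalized with TMM and tested by edgeR's quasi-likelihood test in 1 fit of the 16 mice, and p-values were adjusted by Benjamini-Hochberg over 18826 genes, of which 23.3% were loci assembled by the authors. The thresholds, an adjusted p under 0.05 and a 1.5-fold change, are those of the paper. The comparisons were morphine over saline under each virus, knockdown over Ctrl under each treatment, their interaction and the knockdown averaged over treatments. A standard error is the absolute log2 fold change over the root of the F statistic.

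The 10 genes and all lists were chosen with earlier results of these data known. Named genes were the 10 genes, Kdm7a, every gene of the matrix lists that passed in a comparison (at most 4 per list, by adjusted p), and for each tested gene the 3 known genes with the most similar within-group deviations. The transcript length measure and the repeat of the Vcan and Hapln1 correlation without each mouse were chosen after the values were seen. Lists were described by counts and medians without a set test.

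Depth was 6596991 to 12418112 counts per mouse and the common biological coefficient of variation 0.215. Counts of 25 pairs of mice within groups differed by more than counting error (chi-square per degree of freedom 8.33 to 51.2, over genes with 20 or more counts in both mice together), so all were kept as separate replicates. The labels give each mouse as a separate sample. Deviations of 21 same-numbered pairs of mice correlated at -0.102 to 0.395, with 6 over 0.1. All 3 pairs of Ctrl + Morphine and Ctrl + Saline mice were over 0.1 (0.11 to 0.207), and in every other comparison at least 1 pair was not. The highest values, 0.395 and 0.358, were those of Kdm7a-shRNA mice of unlike treatment with the numbers 3 and 4. Mice with unlike numbers were not compared, so that these correlations cannot show whether the numbers pair mice. The labels do not say that a number marks a shared litter, batch or day. On simulated data for knockdown under morphine (18188 genes), 58% of 100 genes changed by 1 on the log2 scale and 76% of 94 changed by 2 were recovered, with 9 unchanged genes passing. As alternatives, each mouse was left out, and DESeq2, RLE size factors, library size only, known genes only, no filter, at least 10 counts in every mouse, the compared groups alone, a replicate block and the adjusted p alone were used. Positions are from GENCODE vM21 (GRCm38) and promoters from RefSeq (GRCm38.p6). Transcript-level values were not used here, and some markers of the lists are not reported here by name.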

Additional observations from a re-analysis of the deposited data

Results flagged for a closer look

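In groups of 4 or 5 mice, the highest or lowest mouse was compared with its group by the share of the group's range that separates it from the next mouse. By chance about 1 in 20 of such groups holds a mouse past the limit, and 5 of 30 did among the 10 genes. Groups of 3 were not tested. Ctrl + Morphine replicate 4 accounts for 3 of the 5. In it Vcan was 1.82 CPM (the next mouse was at 4.14), Hapln1 was 1.28 CPM (next 3.77), and Acan was 0 CPM (next 0.599). It also had 0 reads of Tnc. Its 8725059 counts were within the range of the other Ctrl mice, its TMM factor of 1.07 was the highest and its transcript length measure of 0.057 the lowest of all Ctrl mice, and its Bcan value of 35.0 CPM was the second highest of its group. Without it, the log2 difference of Hapln1 with knockdown under morphine was -0.26 in place of 0.01, and that of Vcan -0.16 in place of 0.06, neither of which passed.

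Ncan was 20.8 CPM in Kdm7a-shRNA + Saline replicate 1, where the next mouse was at 14.1 CPM. Ptprz1 was 38.2 CPM in Kdm7a-shRNA + Morphine replicate 3, where the next mouse was at 24.3 CPM. This library was the deepest of all, with 12418112 counts, and its value on the transcript length measure (-0.194) was the lowest of its group. The same library had the highest summed microglia markers of its group (4845 CPM, next 2075 CPM) and the highest summed endothelial markers (102.7 CPM, next 69.3 CPM), whose part in the Ptprz1 value was not tested.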

How the results depend on the processing

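The number of the 9 tested genes that passed kept its value in most settings. With knockdown under saline it was 1 (Vcan) and became 0 with library size only, with no filter, with at least 10 counts in every mouse, with known genes only and with the compared groups alone, and 2 (Bcan and Vcan) by adjusted p alone. With knockdown under morphine it was 0 and became 1 (Bcan) with library size only, with known genes only and by adjusted p alone. The averaged comparison went from 0 to 2 (Hapln4 and Ptprz1) by adjusted p alone, and the morphine comparison of Ctrl mice and the interaction from 0 to 1 (Bcan) with DESeq2. Leaving out 1 mouse at a time gave 0 to 1 in each of these except the averaged comparison and morphine under knockdown, which stayed at 0. The causes were not tested.

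Of the log2 differences, those near 0 changed sign: with library size only Vcan was -0.046 and Hapln1 -0.091 for knockdown under morphine, with at least 10 counts in every mouse Hapln1 was -0.005 for morphine in Ctrl mice and -0.004 for knockdown under morphine, and with known genes only it was -0.016 and -0.027. Sign changes on leaving out 1 mouse occurred for Ncan (-0.023 to 0.31 for morphine in Ctrl mice, -0.28 to 0.029 for morphine under knockdown, -0.23 to 0.15 for knockdown under saline), Vcan (-0.13 to 0.35 for morphine in Ctrl mice, -0.16 to 0.15 for knockdown under morphine), Hapln1 (-0.12 to 0.29 for morphine in Ctrl mice, -0.26 to 0.15 for knockdown under morphine), Hapln2 (-0.18 to 0.34 for morphine in Ctrl mice, -0.011 to 0.44 for knockdown under saline, -0.17 to 0.055 for the averaged knockdown), Hapln4 (-0.088 to 0.23 for the interaction), Tnr (-0.10 to 0.38 for the interaction) and Tnc (-0.63 to 0.18 for morphine in Ctrl mice, -0.81 to 0.34 for the interaction, -0.089 to 1.07 for knockdown under morphine, -1.04 to 0.016 for morphine under knockdown). None of these differences passed as reported. Tnc had too few counts for a value with at least 10 counts in every mouse. The alternatives left Bcan at 0.77 to 0.83 for morphine in Ctrl mice (adjusted p 0.00182 to 0.161), and leaving out a mouse at 0.74 to 0.85 (0.0371 to 0.437). Whether the replicate numbers pair mice was not shown, and the replicate block changed none of the 6 counts of matrix genes that passed. With the block, Bcan was 0.83 for morphine in Ctrl mice (adjusted p = 0.161) and its adjusted p with knockdown under saline was 0.0846. Vcan under saline was 1.00 (adjusted p = 0.0233) and the interaction of Hapln4 turned to -0.097.

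Library size only moved the median of all genes by about -0.11 in the knockdown comparisons (-0.111 under morphine, -0.117 under saline) and the split of genes that passed from 538 higher and 910 lower to 394 and 1246 under morphine, from 1398 and 1753 to 967 and 2342 under saline, and from 1446 and 1870 to 1053 and 2391 in the averaged comparison. With known genes only the split turned over, to 258 higher and 166 lower under morphine, 849 and 529 under saline and 1008 and 401 averaged. Of all genes, 1448 passed with knockdown under morphine, 697 with at least 10 counts in every mouse, 424 with known genes only and 685 with the compared groups alone, and 568 to 2066 when a mouse was left out. Under saline 3151 passed, 1852 with at least 10 counts, 1378 with known genes only and 1424 to 3730 without a mouse. In the averaged comparison 3316 passed, and 1525 and 1409 under those filters. In the interaction 16 passed, 34 without a filter, 6 with the block, 217 with DESeq2 and 0 to 266 without a mouse. In the morphine comparison of Ctrl mice 0 passed, 185 with DESeq2 and 230 without Ctrl + Saline replicate 1, and under knockdown 1 passed, 20 with DESeq2. Depth kept Acan from being tested. Counts were also low for Tnc (0 to 38), Hapln1 (12 to 42) and Vcan (16 to 65), whose counting errors of 24.4%, 19.2% and 16.2% were below the spread between mice in some groups (up to 85.2%, 41.3% and 33.1%).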
